A study of Mus musculus with 6 samples.

Results

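Gene expression in ALCAM+ ITGA8+ cells was set against that in ALCAM+ ITGA8- cells, both sorted from liver of E12.5 embryos of wild type C57Bl6 mice. ALCAM is an adhesion molecule of the immunoglobulin family, and ITGA8 is the integrin alpha 8 subunit, here used to divide the cells that carry ALCAM. Each fraction was measured on 1 Affymetrix Mouse Genome 430 2.0 array, and these are 2 of the 6 arrays of the series. The labels used here do not say how many embryos went into a sort. The values are intensities of probe sets, the short oligonucleotide sets that report a transcript. Of 20678 genes with a probe set of their own, 13890 were compared: 1 probe set stood for each gene, the one whose mean over these 2 arrays was highest, and its higher array had to exceed an intensity of 109, the median of all values in the table. Just inside this floor stood 2610007B07Rik, at 110 in ITGA8+ and 110 in ITGA8- cells, and 2900006B11Rik, at 49 in ITGA8+ and 110 in ITGA8- cells. Just outside were 1700037C18Rik, at 109 in ITGA8+ and 105 in ITGA8- cells, and 1700001G17Rik, at 73 in ITGA8+ and 109 in ITGA8- cells. Differences are ITGA8+ minus ITGA8- on the scale log2(intensity + 16), and the added 16 makes the folds of low genes too small. With 1 array per group there is no spread between samples and no test, so "2-fold higher" and "2-fold lower" describe these arrays only.

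Integrin alpha 8 pairs with the integrin beta 1 chain as a receptor for matrix proteins with an RGD motif, among them nephronectin, and its loss in the mouse disturbs kidney development. Hepatic stellate cells are the mesenchymal cells of the liver that store vitamin A as retinyl esters and lie between the endothelium and the hepatocytes. The mesothelium is the epithelium on the surface of the organ, and in the mouse embryo cells of this layer and of the mesenchyme beneath it give rise to stellate cells. The series as a whole concerns the isolation of such stellate cells.

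The sort was followed by its own marker. Itga8 had an intensity of 4354 in ITGA8+ cells and 871 in ITGA8- cells, 4.93-fold higher, so the negative fraction still lay above the floor. A second Itga8 probe set, below the floor in both, had 96 in ITGA8+ and 4 in ITGA8- cells. Both arrays had a trimmed mean near 997, at 996.631 in ITGA8+ and 996.783 in ITGA8- cells, and their Spearman correlation over probe sets was 0.963. The median intensity was 173 in ITGA8+ and 200 in ITGA8- cells. Levels in the PDPN+ and PDPN- fractions of ALCAM+ cells, a separate sort for podoplanin, are on the same scale and are given beside some genes. Itga8 had 737 in PDPN+ and 2215 in PDPN- cells.

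Of the 13890 genes, 763 (5.49%) had a level 2-fold higher in ITGA8+ cells and 817 (5.88%) a level 2-fold lower, and the median difference was 0.02. Most genes (88.6%) lay within 2-fold, and the 10th and 90th percentiles were -0.80 and 0.78. At 4-fold the counts were 51 higher and 65 lower. The balance of the directions depended on the scaling: 48.3% of the genes past 2-fold were higher as deposited, 49.5% after loess, and 62.8% after quantile normalisation of the 2 arrays, which gave 1003 higher and 594 lower. Different probe sets of 1 gene are the only repeat measurement in an array. Over 6154 genes with several above the floor, their differences had a pooled SD of 0.55, so a value near 1 is less than 2 such SDs from 0. This SD comes from the same 2 arrays and holds no variation between sorts, embryos or amplifications. A larger value is therefore not shown to be repeatable. Of the higher genes, 308 had another probe set above the floor, and in 214 (69.5%) every other one had the same sign. For the lower genes these numbers were 258 and 188 (72.9%).

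**Figure D1:**
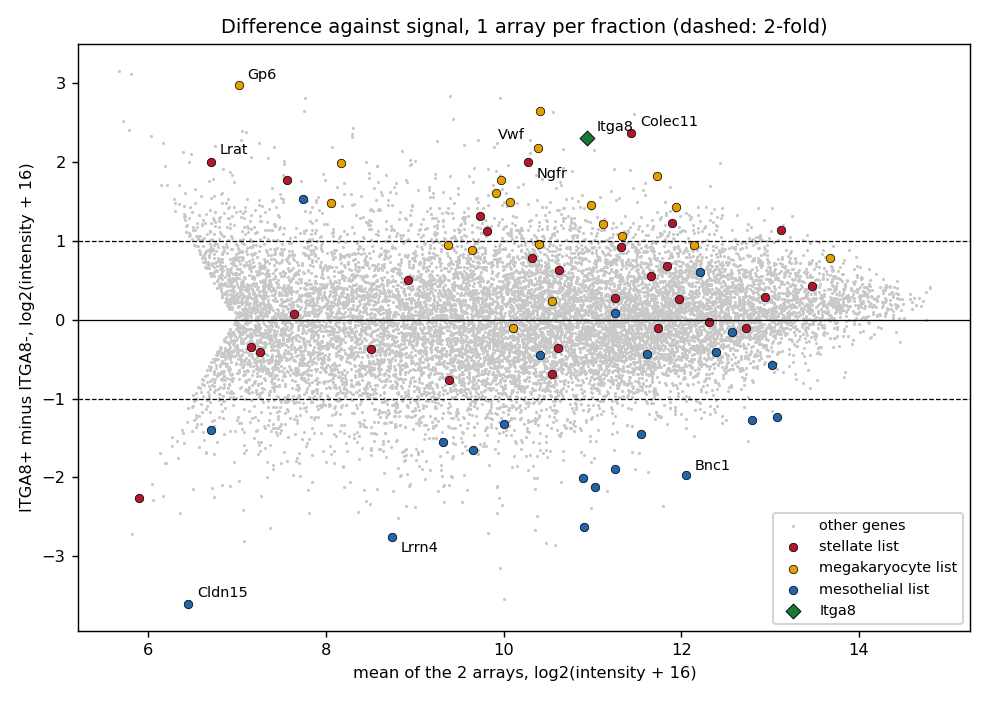
Difference of log2(intensity + 16), ITGA8+ minus ITGA8-, on the y axis against the mean of the 2 arrays on the x axis, 1 point per gene above the floor, with the stellate, megakaryocyte and mesothelial lists and Itga8 coloured. Mesothelial genes lie mostly below 0, with Cldn15 at -3.61, and megakaryocyte genes mostly above it, with Gp6 at 2.98.

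Genes are described below in 31 lists by role, chosen with earlier results of these data known. Of their 660 genes, 652 were measured and 557 lay above the floor, of which 69 were 2-fold higher and 72 2-fold lower. Over all 13890 genes 5.49% were 2-fold higher and 5.88% lower, so listed genes passed 2-fold more often. Every list count below is to be read beside these shares. In a sorted population, fewer cells of a type and less RNA per cell cannot be told apart. Levels of different genes come from different probes and are not compared with each other. Where the intensities of a list are summed, the sum is compared between fractions only, and bright probe sets weigh most in it.

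Genes of the integrin alpha 8 receptor and its surroundings did not move as 1 group: of 21 above the floor, 4 were 2-fold higher in ITGA8+ cells and 5 lower, with a median of -0.03. The partner chain Itgb1 had 1733 in ITGA8+ and 2380 in ITGA8- cells, within 2-fold. Of its ligands, 3 were 2-fold lower where the receptor gene was higher. Npnt, nephronectin, had 1282 in ITGA8+ and 2696 in ITGA8- cells (-1.06), and its 4 other probe sets were between -2.49 and -1.48. Egfl6, a matrix protein that also binds integrin alpha 8, had 333 in ITGA8+ and 975 in ITGA8- cells. Spp1, osteopontin, had 43 in ITGA8+ and 177 in ITGA8- cells. In contrast, Fn1 (fibronectin), Vtn (vitronectin) and Tnc (tenascin C), which are ligands too, lay within 2-fold. All 3 ligands that were lower had more signal in PDPN+ than in PDPN- cells, Npnt at 3775 in PDPN+ and 320 in PDPN- cells.

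The Fraser complex, a trio of basement membrane proteins that anchors epithelium and helps to place nephronectin in the kidney, was divided. Frem2 had 519 in ITGA8+ and 3786 in ITGA8- cells, a difference of -2.83. Fras1 had 433 in ITGA8+ and 2270 in ITGA8- cells (-2.35), with its other probe set at -1.32. Frem1, by contrast, had 2061 in ITGA8+ and 860 in ITGA8- cells, 2.37-fold higher, with no other probe set. Inside the cell, Tln1 and Tln2, the talins that link integrins to actin, passed 2-fold (1.05 and 1.60), but each had another probe set of the opposite sign, that of Tln2 at -0.94. The linked adhesion genes Ilk, Fermt2, Ptk2, Lims1, Parva, Pxn and Vcl were all within 2-fold. Of 13 other integrin genes above the floor, 3 passed 2-fold, all upward (median 0.79): Itgb5, which pairs with the alpha V chain, at 2279 in ITGA8+ and 1033 in ITGA8- cells (0.09 with specific probe sets only, those whose suffix marks no shared or variant transcript), and 2 blood cell genes, Itga2b of platelets and Itgb2 of leukocytes.

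Stellate genes were more often higher. Of 29 above the floor, 8 (27.6%) were 2-fold higher in ITGA8+ cells and 1 (3.4%) lower, with a median of 0.43. Over all genes these shares were 5.49% and 5.88%. Lrat, the enzyme that esterifies retinol for storage, had 193 in ITGA8+ and 36 in ITGA8- cells, so its lower array is below the floor, and its other probe set, at 52 in ITGA8+ and 49 in ITGA8- cells, did not reach it. Ngfr, the p75 neurotrophin receptor of stellate cells, had 2466 in ITGA8+ and 602 in ITGA8- cells, 4.02-fold higher. The fraction that carried the integrin was thus also the one with more signal for both genes.

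Colec11 and Colec10 encode collectins that form a joint complex, soluble lectins of the innate immune system that start the lectin pathway of complement. Colec11 had 6291 in ITGA8+ and 1202 in ITGA8- cells (2.37), and its other probe set had 914 in ITGA8+ and 372 in ITGA8- cells (1.26). Colec10 had 5851 in ITGA8+ and 2479 in ITGA8- cells, 2.35-fold higher. Masp1, the serine protease that rides on such lectins and cleaves complement proteins, had 10640 in ITGA8+ and 1885 in ITGA8- cells (2.49), with its 3 other probe sets at 3.09, 2.06 and 0.75. The lectin list held 6 genes above the floor, 3 of them 2-fold higher and none lower (median 1.02), while Masp2 (361 in ITGA8+ and 201 in ITGA8- cells) and Mbl1 (440 in ITGA8+ and 345 in ITGA8- cells), the corresponding protease and lectin known from hepatocytes, stayed within 2-fold. Colec11 had 2105 in PDPN+ and 3614 in PDPN- cells and Masp1 1239 in PDPN+ and 3410 in PDPN- cells, whereas Colec10 had 3701 in PDPN+ and 2886 in PDPN- cells. Masp2 had 1029 in PDPN+ and 3242 in PDPN- cells, and Mbl1 2036 in PDPN+ and 4468 in PDPN- cells. More signal in PDPN- cells was thus shared by Masp2 and Mbl1.

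The other stellate genes past 2-fold were Reln, the secreted glycoprotein reelin, at 13250 in ITGA8+ and 6008 in ITGA8- cells, Lhx2, a transcription factor needed to hold back stellate cell activation in the mouse, at 1313 in ITGA8+ and 595 in ITGA8- cells, Angptl6, a secreted angiopoietin-like protein, at 1331 in ITGA8+ and 523 in ITGA8- cells, and Prelp, a leucine-rich matrix proteoglycan, at 334 in ITGA8+ and 86 in ITGA8- cells. Ramp1, a receptor activity-modifying protein, was the member on the other side, at 11 in ITGA8+ and 114 in ITGA8- cells. Among the 20 members within 2-fold, Pdgfrb had 3279 in ITGA8+ and 3518 in ITGA8- cells, Des (desmin) 562 in ITGA8+ and 392 in ITGA8- cells, and Hand2 4409 in ITGA8+ and 3659 in ITGA8- cells. With the mean of all probe sets of a gene in place of 1, 5 stellate genes were 2-fold higher, and Ngfr was at 0.73. Beside these differences, the megakaryocyte list had a summed intensity of 65959 in ITGA8+ and 29366 in ITGA8- cells, with 13 of its 20 genes 2-fold higher, and the part of such cells in the stellate and lectin differences was not tested. In the podoplanin sort Lrat had 9 in PDPN+ and 231 in PDPN- cells, and Ngfr 154 in PDPN+ and 436 in PDPN- cells.

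**Figure D2:**
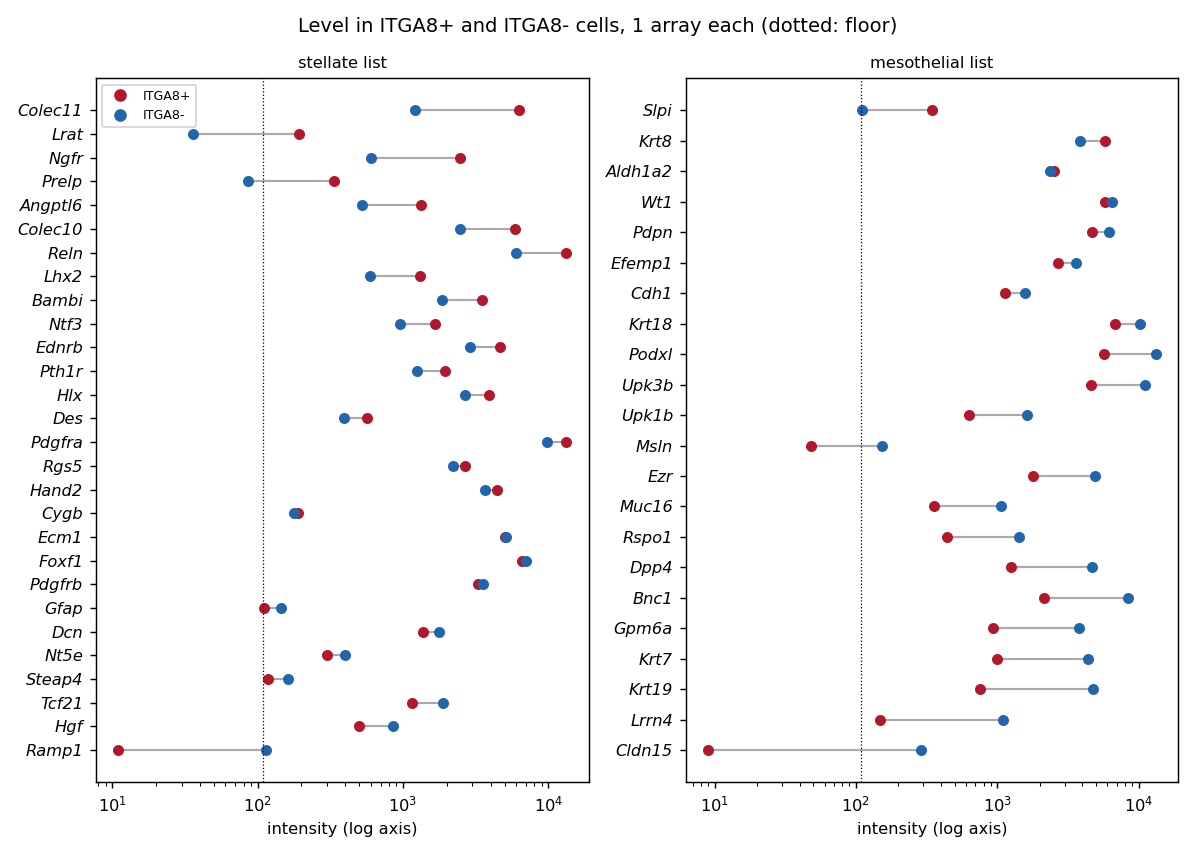
Intensity (log axis) of the stellate list (left) and the mesothelial list (right) in ITGA8+ (red) and ITGA8- (blue) cells, 1 array each, ordered by the difference, with the floor dotted and 1 stellate gene not drawn. In the stellate list 8 of 29 genes are 2-fold higher in ITGA8+ cells, and in the mesothelial list 14 of 22 are 2-fold lower.

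Mesothelial genes were lower in ITGA8+ cells. Of 22 above the floor, 14 (63.6%) were 2-fold lower and 1 (4.5%) higher, with a median of -1.36. Over all genes these shares were 5.88% and 5.49%. The tight junction gene Cldn15 had 9 in ITGA8+ and 289 in ITGA8- cells, -3.61. The keratin gene Krt19 had 756 in ITGA8+ and 4781 in ITGA8- cells and Krt7 988 in ITGA8+ and 4346 in ITGA8- cells. The keratin genes Krt18, at 6825 in ITGA8+ and 10141 in ITGA8- cells, and Krt8 were within 2-fold. Krt8 went the other way, at 5813 in ITGA8+ and 3817 in ITGA8- cells, as did its 2 other probe sets above the floor, at least 1 past 2-fold. Bnc1, a zinc finger transcription factor of mesothelium, had 2124 in ITGA8+ and 8382 in ITGA8- cells. Of the 14 lower genes, 12 were above the floor in ITGA8+ cells as well.

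Among surface proteins of the mesothelium, Upk3b had 4578 in ITGA8+ and 11076 in ITGA8- cells, Gpm6a 930 in ITGA8+ and 3793 in ITGA8- cells, and Podxl 5650 in ITGA8+ and 13258 in ITGA8- cells. The other probe sets of Upk3b and Gpm6a also passed 2-fold. Msln (mesothelin) had 48 in ITGA8+ and 153 in ITGA8- cells. Wt1, a transcription factor of mesothelium and of the mesenchyme under it, was within 2-fold, at 5762 in ITGA8+ and 6421 in ITGA8- cells, as were Pdpn, at 4658 in ITGA8+ and 6176 in ITGA8- cells, and Aldh1a2, at 2509 in ITGA8+ and 2363 in ITGA8- cells. Slpi, a secreted protease inhibitor, was the member that was 2-fold higher, at 348 in ITGA8+ and 110 in ITGA8- cells. Immediate early and stress genes lay on the same side: 5 of 21 were 2-fold lower and none higher (median -0.60), led by Klf6 at 2554 in ITGA8+ and 5893 in ITGA8- cells, and after loess or quantile normalisation 2 were. Their part in the mesothelial difference was not tested.

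Genes of epithelial cell contacts followed in the same direction in this sort, with 9 of 26 (34.6%) 2-fold lower and 1 (3.8%) higher (median -0.54). They included Cdh3, P-cadherin, at 164 in ITGA8+ and 596 in ITGA8- cells, Ocln, occludin, at 196 in ITGA8+ and 510 in ITGA8- cells, Cldn6 at 110 in ITGA8+ and 344 in ITGA8- cells, the polarity gene Pard6b at 751 in ITGA8+ and 1964 in ITGA8- cells, and Dsc2, a desmosomal cadherin, at 3719 in ITGA8+ and 8998 in ITGA8- cells. The desmosomal plaque gene Dsp went the other way, at 11004 in ITGA8+ and 5226 in ITGA8- cells, with its other probe set past 2-fold as well. In Dsp the values after loess and after quantile normalisation were below 2-fold. Cdh1, E-cadherin, was within 2-fold, at 1142 in ITGA8+ and 1570 in ITGA8- cells. In the podoplanin sort the list median for PDPN+ minus PDPN- was -0.29, while that of the mesothelial list was 4.96. Cdh3 had 756 in PDPN+ and 88 in PDPN- cells, but Ocln had 1117 in PDPN+ and 1959 in PDPN- cells.

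Basement membranes are sheets of laminin trimers and a collagen IV network under epithelia and around vessels. Collagen IV chains are encoded in head-to-head gene pairs: Col4a1 and Col4a2 form the widespread network, and Col4a5 and Col4a6 contribute to a network of selected basement membranes. The promoters of the pairs that differed are shown because the genes of a pair lie next to each other and differed in the same direction. RefSeq windows on GRCm38.p6 run from 250 bases before to 50 bases after each gene's start; capitals mark the 78 bases that the Col4a1 and Col4a2 windows share on opposite strands, and in Col4a5 and Col4a6 a GC box, GGGCGG, or its reverse complement CCGCCC. The windows are chr8:11312777-11313076 (minus strand, Col4a1), chr8:11312555-11312854 (plus strand, Col4a2), chrX:141475169-141475468 (plus strand, Col4a5) and chrX:141474027-141474326 (minus strand, Col4a6).
Col4a1: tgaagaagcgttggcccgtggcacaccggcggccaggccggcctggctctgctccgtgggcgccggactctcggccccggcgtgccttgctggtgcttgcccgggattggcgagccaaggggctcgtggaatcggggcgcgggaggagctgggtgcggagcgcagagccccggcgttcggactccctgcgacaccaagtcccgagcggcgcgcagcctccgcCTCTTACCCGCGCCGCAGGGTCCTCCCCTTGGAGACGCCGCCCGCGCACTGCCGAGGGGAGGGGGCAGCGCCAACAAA
Col4a2: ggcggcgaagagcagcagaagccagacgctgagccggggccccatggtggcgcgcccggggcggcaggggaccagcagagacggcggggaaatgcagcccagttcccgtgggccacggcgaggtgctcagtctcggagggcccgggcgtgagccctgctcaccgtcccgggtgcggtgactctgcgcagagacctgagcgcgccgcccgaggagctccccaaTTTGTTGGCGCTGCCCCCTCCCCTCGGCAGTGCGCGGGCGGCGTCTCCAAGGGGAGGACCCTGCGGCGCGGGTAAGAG
Col4a5: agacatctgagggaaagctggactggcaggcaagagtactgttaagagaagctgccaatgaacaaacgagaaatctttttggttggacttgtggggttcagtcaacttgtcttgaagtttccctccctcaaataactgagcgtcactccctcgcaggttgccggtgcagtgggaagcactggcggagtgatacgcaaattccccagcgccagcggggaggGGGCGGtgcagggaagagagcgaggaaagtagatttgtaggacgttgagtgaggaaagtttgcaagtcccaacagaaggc
Col4a6: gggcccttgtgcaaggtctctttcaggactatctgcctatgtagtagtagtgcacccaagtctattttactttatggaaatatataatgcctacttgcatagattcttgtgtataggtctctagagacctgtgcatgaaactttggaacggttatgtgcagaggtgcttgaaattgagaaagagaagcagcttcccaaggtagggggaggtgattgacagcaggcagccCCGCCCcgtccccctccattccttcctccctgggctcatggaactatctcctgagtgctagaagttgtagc

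The Col4a1 and Col4a2 windows had a GC content of 74.0% and 73.7%, against 52.7% and 48.3% for Col4a5 and Col4a6 and a median of 52.7% over the 32851 promoters of the table. The windows of Col4a5 and Col4a6 did not overlap, with 842 bases between them. The GC box occurred 1 time in Col4a1, 3 times in Col4a2 and 1 time each in Col4a5 and Col4a6, counting both strands, and 35.7% of all promoters held it. The letters CCAAT or ATTGG occurred 1 time in each but Col4a6 (37.4% of all promoters), and TATAAA or TTTATA in none of the 4 (13.6%). A match describes these letters and is not a binding site.

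The collagen IV pairs differed in opposite directions. Col4a1 had 7337 in ITGA8+ and 3262 in ITGA8- cells (1.17), with its other probe set at 0.40, and Col4a2 had 6018 in ITGA8+ and 2653 in ITGA8- cells (1.18). Col4a5 had 1070 in ITGA8+ and 3772 in ITGA8- cells (-1.80), with its other probe set at -1.16, and its partner lay on the same side. Col4a6 had 294 in ITGA8+ and 1309 in ITGA8- cells (-2.10), with its other probe set at -2.54. Col4a4 was also lower, at 102 in ITGA8+ and 238 in ITGA8- cells, but at -0.32 with the mean of all its probe sets. The level of the Col4a1 and Col4a2 pair was thus the higher one in ITGA8+ cells, and that of the Col4a5 and Col4a6 pair the higher one in ITGA8- cells.

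Laminin chains divided in a similar way. The alpha chain genes Lama1, at 1727 in ITGA8+ and 684 in ITGA8- cells, and Lama2, at 879 in ITGA8+ and 400 in ITGA8- cells, were 2-fold higher. Lama5, the alpha chain of many epithelial basement membranes, had 769 in ITGA8+ and 3265 in ITGA8- cells, 4.18-fold lower, with its other probe set at -2.46. The gamma chain genes Lamc1, at 2542 in ITGA8+ and 5528 in ITGA8- cells, and Lamc3, at 145 in ITGA8+ and 306 in ITGA8- cells, were lower, Lamc3 by 2.0-fold. In all, 4 of 21 basement membrane genes were 2-fold higher and 6 lower (median -0.06); Nid1, Agrn, Hspg2 and Sparc were within 2-fold. In the separate podoplanin sort, Col4a5 (5800 in PDPN+ and 558 in PDPN- cells), Col4a6 (1416 in PDPN+ and 61 in PDPN- cells) and Lama5 (4215 in PDPN+ and 381 in PDPN- cells) had more signal in PDPN+ cells, and Col4a1 (1646 in PDPN+ and 2796 in PDPN- cells) had more in PDPN- cells, with its other probe set at 516 in PDPN+ and 1231 in PDPN- cells. Col4a2 had 1284 in PDPN+ and 1373 in PDPN- cells, and Lama1 248 in PDPN+ and 288 in PDPN- cells. Mesothelial genes had more signal in the same fractions as Col4a5, Col4a6 and Lama5, with a summed intensity of 49440 in ITGA8+ and 95112 in ITGA8- cells, and their part in these differences was not tested.

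**Figure D3:**
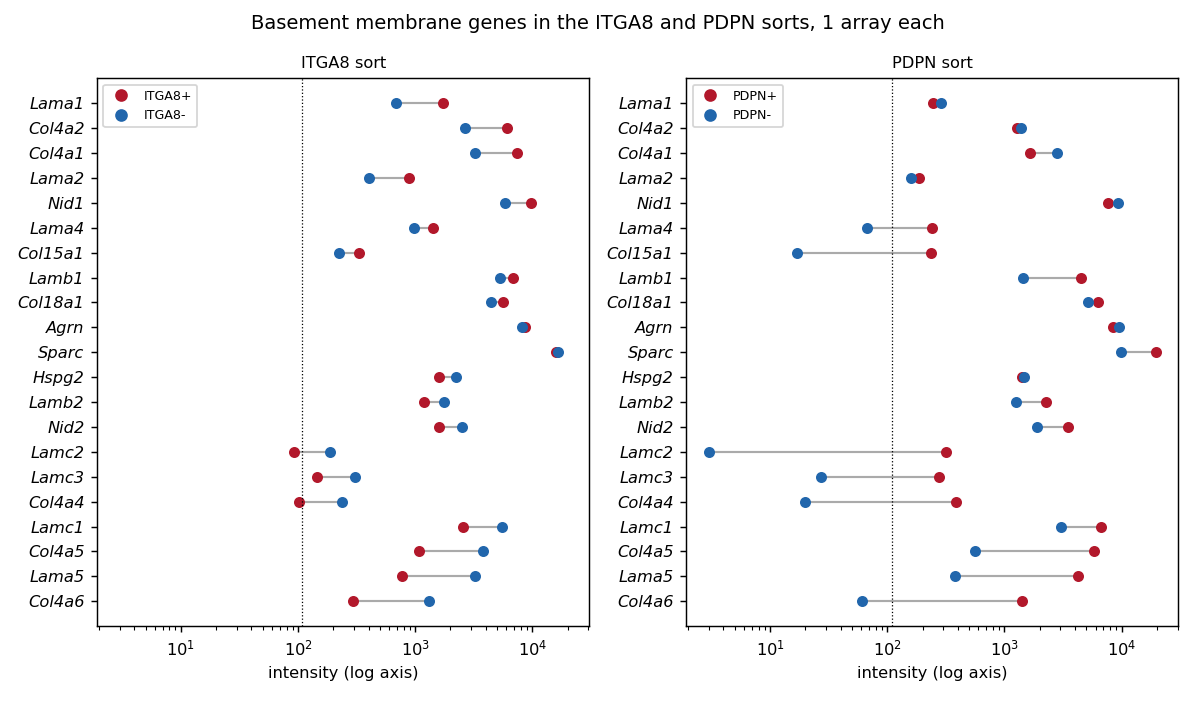
Intensity (log axis) of the 21 basement membrane genes above the floor in the ITGA8 sort (left, ITGA8+ red, ITGA8- blue) and the PDPN sort (right, PDPN+ red, PDPN- blue), 1 array each, in the order of the ITGA8 difference. Col4a5, Lama5 and Col4a6, at the bottom, are lower in ITGA8+ cells and have more signal in PDPN+ than in PDPN- cells.

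In the interstitial matrix, 4 of 27 genes passed 2-fold upward and 1 downward (median 0.17). Col6a2 had 15285 in ITGA8+ and 6119 in ITGA8- cells and Col6a3 7358 in ITGA8+ and 2932 in ITGA8- cells, both chains of the beaded-filament collagen VI, and Col6a1 was just within 2-fold at 10675 in ITGA8+ and 5743 in ITGA8- cells. Bgn, the proteoglycan biglycan, had 9980 in ITGA8+ and 3973 in ITGA8- cells, and both its other probe sets passed 2-fold. Ogn, osteoglycin, had 2530 in ITGA8+ and 1127 in ITGA8- cells. The fibril genes Col1a1, Col1a2 and Col3a1 lay within 2-fold, and Fbln2, fibulin 2, was lower, at 586 in ITGA8+ and 1612 in ITGA8- cells. Among enzymes that process collagen, Adamts2, which removes the amino-terminal propeptide of procollagen, had 2615 in ITGA8+ and 358 in ITGA8- cells, 7.03-fold higher, with its other probe sets at 2.60 and 0.16.

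Secreted factors of the TGF-beta family included several with large differences. Gdf2, also known as BMP9 and secreted by stellate cells in the mouse liver, had 6991 in ITGA8+ and 1133 in ITGA8- cells, 6.10-fold higher. Gdf10 had 10966 in ITGA8+ and 2763 in ITGA8- cells, and Bmp5 867 in ITGA8+ and 246 in ITGA8- cells, with its 2 other probe sets within 2-fold at 0.91 and 0.81. The response genes Id1, at 453 in ITGA8+ and 2014 in ITGA8- cells, and Id3, at 2589 in ITGA8+ and 5373 in ITGA8- cells, which are induced by BMP signals, were lower in the same cells, as was the receptor Bmpr1b, at 242 in ITGA8+ and 839 in ITGA8- cells. Id2 and Id4 also had less signal in ITGA8+ cells, but within 2-fold. Bambi, Smad6 and Smad7 had more, also within 2-fold, Bambi at 3507 in ITGA8+ and 1839 in ITGA8- cells. The TGF-beta and BMP list, which does not hold Gdf2, had 29 genes above the floor, 2 of them 2-fold higher and 3 lower (median 0.06, and -0.05 after loess). These are 6.9% and 10.3%, beside 5.49% and 5.88% over all genes. Gdf2, Gdf10 and Bmp5 had more signal in PDPN- than in PDPN+ cells, Gdf2 at 894 in PDPN+ and 2481 in PDPN- cells, and Bmp5 at 165 in PDPN+ and 1327 in PDPN- cells.

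Of 32 WNT genes, 1 was 2-fold higher and 5 were lower (median -0.30). The secreted WNT inhibitor Dkk1 had 1010 in ITGA8+ and 304 in ITGA8- cells, and its other probe set passed 2-fold too. Axin2, a feedback target of the pathway, had 615 in ITGA8+ and 1540 in ITGA8- cells. The agonist Rspo1 had 439 in ITGA8+ and 1412 in ITGA8- cells, the ligand Wnt5a 169 in ITGA8+ and 387 in ITGA8- cells, Wnt2b 33 in ITGA8+ and 129 in ITGA8- cells, and the receptor Fzd6 352 in ITGA8+ and 925 in ITGA8- cells. The other 26 genes lay within 2-fold, other secreted inhibitors among them. Sfrp2 had 11109 in ITGA8+ and 9601 in ITGA8- cells, and Wif1 85 in ITGA8+ and 122 in ITGA8- cells. Of the list, 3.1% were higher and 15.6% lower, beside 5.49% and 5.88% over all genes. In the podoplanin sort Dkk1 had 86 in PDPN+ and 699 in PDPN- cells and Rspo1 1872 in PDPN+ and 26 in PDPN- cells, while Axin2 had 1221 in PDPN+ and 1308 in PDPN- cells.

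Among growth factors, Fgf9, a signal from mesothelium to mesenchyme in the mouse lung, had 324 in ITGA8+ and 1332 in ITGA8- cells, with its other probe set at -1.96, and Fgf18 had 313 in ITGA8+ and 684 in ITGA8- cells. The FGF feedback inhibitor Spry4 had 1148 in ITGA8+ and 471 in ITGA8- cells, but its 2 other probe sets above the floor were at 0.29 and 0.43. Pdgfa, at 1666 in ITGA8+ and 4242 in ITGA8- cells, and Pdgfd, at 459 in ITGA8+ and 1067 in ITGA8- cells, were lower, while the receptors Pdgfra and Pdgfrb were within 2-fold. The lymphatic growth factors Vegfd, at 1097 in ITGA8+ and 305 in ITGA8- cells, and Vegfc, at 4324 in ITGA8+ and 2143 in ITGA8- cells, were higher, Vegfc just past 2-fold and with its other probe sets near 0.20. Of 7 binding proteins of the insulin-like growth factors, Igfbp1, Igfbp3, Igfbp4, Igfbp5 and Igfbp6 were within 2-fold. Igfbp7 had 3727 in ITGA8+ and 586 in ITGA8- cells, with its other probe set above the floor at 0.80, while Igfbp2 was 5.49-fold lower in ITGA8+ cells (-2.46), against 2255 in ITGA8- cells. The list of HGF, PDGF, VEGF and IGF genes, which does not hold Vegfd, had 2 of 24 (8.3%) higher and 5 (20.8%) lower (median -0.14). That of FGF genes had 1 of 15 (6.7%) higher and 2 (13.3%) lower (median 0.14). Over all genes the shares were 5.49% and 5.88%.

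Cxcl12, the chemokine that retains blood stem cells in their niche, had 5827 in ITGA8+ and 2438 in ITGA8- cells, and its other probe set above the floor also passed 2-fold. It was the 1 gene of 13 in the niche list past 2-fold (median 0.47), a share of 7.7% beside 5.49% higher over all genes. The stem cell factor gene Kitl had 1676 in ITGA8+ and 2435 in ITGA8- cells. In the podoplanin sort Cxcl12 had 3185 in PDPN+ and 8182 in PDPN- cells. Of 21 hedgehog and Notch genes, Boc, a hedgehog co-receptor, at 5729 in ITGA8+ and 2269 in ITGA8- cells, Notch4, at 672 in ITGA8+ and 208 in ITGA8- cells, and the Notch effector Heyl, at 346 in ITGA8+ and 124 in ITGA8- cells, were 2-fold higher, and none was lower (median 0.30). The higher share was 14.3% in this list, beside 5.49% over all genes.

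Transcription factors of the coelomic lining and its mesenchyme were split. Of 37 above the floor, 4 (10.8%) were 2-fold higher and 6 (16.2%) lower (median 0.21), beside 5.49% and 5.88% over all genes. The homeobox gene Meox2 had 731 in ITGA8+ and 177 in ITGA8- cells, with its other probe set at 2.08, Twist2 had 753 in ITGA8+ and 200 in ITGA8- cells, and Lhx2 is given above. Gata5 had 2663 in ITGA8+ and 1059 in ITGA8- cells, but its other probe set was at -0.62. Among the lower ones were Isl1, at 1600 in ITGA8+ and 6158 in ITGA8- cells, Lhx9, at 749 in ITGA8+ and 2387 in ITGA8- cells, Barx1, at 328 in ITGA8+ and 1351 in ITGA8- cells, Tbx18, at 612 in ITGA8+ and 1713 in ITGA8- cells, and Osr1, at 84 in ITGA8+ and 187 in ITGA8- cells. The LIM homeobox genes therefore stood on both sides, Lhx2 higher and Lhx9 and Isl1 lower in ITGA8+ cells. Gata4, Foxf1, Tcf21 and Nr2f2 were within 2-fold.

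**Figure D4:**
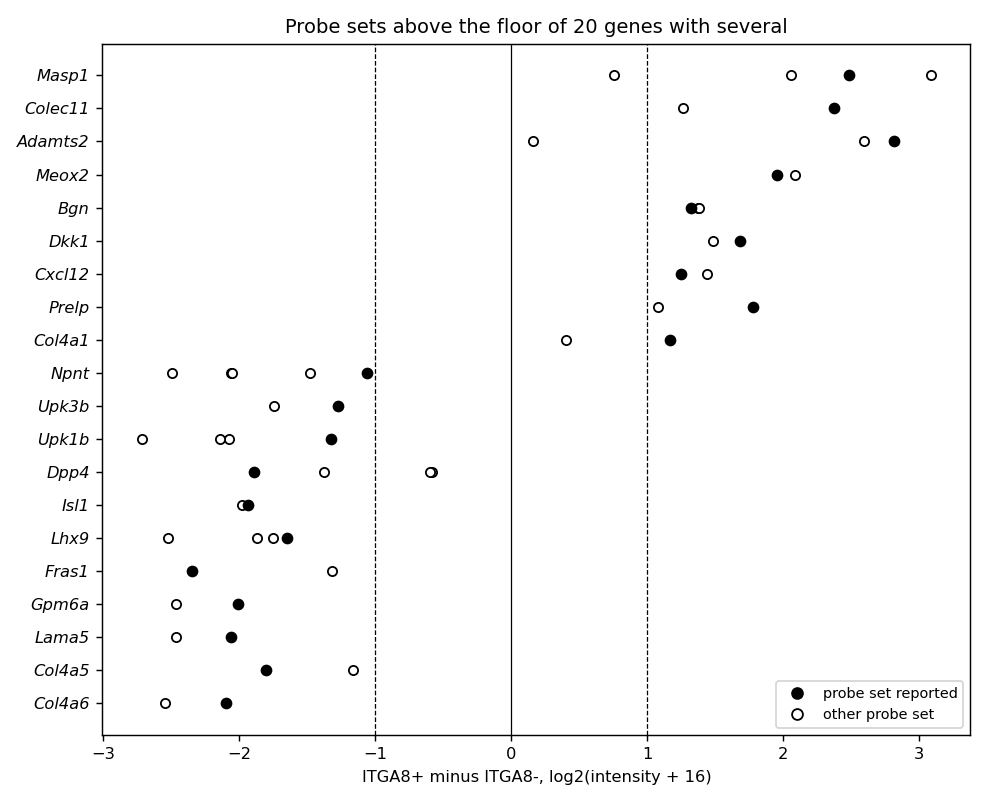
Difference (x axis, log2(intensity + 16), ITGA8+ minus ITGA8-) of every probe set above the floor for 20 genes with several, chosen after their values were seen, with the probe set reported in the text filled and the others open. Open points of Col4a1 (0.40), Adamts2 (0.16) and Masp1 (0.75) lie closer to 0 than the filled ones. Over all genes past 2-fold with another probe set above the floor, every other one had the same sign in 69.5% of the higher and 72.9% of the lower.

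Retinoid genes apart from Lrat and Stra6 were within 2-fold: of 19, Lrat was 2-fold higher and 1 gene lower (median 0.11). The lower gene was Stra6, the membrane receptor that takes up retinol from its binding protein, at 147 in ITGA8+ and 713 in ITGA8- cells. The share was 5.26% in each direction, near the 5.49% higher and 5.88% lower over all genes. As given above, the lower array of Lrat and its other probe set were below the floor. Stra6 had no other probe set above the floor.

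Of 19 neural genes, 4 (21.1%) were 2-fold higher and 4 (21.1%) lower (median 0.18), beside 5.49% and 5.88% over all genes. Besides Ngfr and Reln these were Ntrk2, the receptor of brain-derived neurotrophic factor, at 203 in ITGA8+ and 76 in ITGA8- cells, and Gap43, at 220 in ITGA8+ and 91 in ITGA8- cells. The ligand Bdnf itself had 93 in ITGA8+ and 279 in ITGA8- cells, with its other probe set at -1.98, and Stmn2 and Cntn1 were among the other lower genes. Axon guidance genes had 1 of 38 (2.6%) higher and 5 (13.2%) lower (median -0.14), beside the same 5.49% and 5.88%. The lower ones were the semaphorins Sema3c and Sema3g, the semaphorin receptor Plxna4, and Efna1 and Epha7, an ephrin and an Eph receptor, Epha7 at 815 in ITGA8+ and 2043 in ITGA8- cells. The netrin receptor Unc5c had 7446 in ITGA8+ and 3245 in ITGA8- cells, with its other probe set at -0.24.

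Contractile genes were partly higher, with 21.4% of the smooth muscle list 2-fold higher, beside 5.49% over all genes. Of 14 smooth muscle genes, 3 passed 2-fold, all upward (median 0.42): Acta2, smooth muscle actin, at 4012 in ITGA8+ and 1808 in ITGA8- cells, Actg2 at 1049 in ITGA8+ and 475 in ITGA8- cells, and the calponin gene Cnn2 at 10581 in ITGA8+ and 4680 in ITGA8- cells. Tagln, at 764 in ITGA8+ and 1141 in ITGA8- cells, and Myl9, at 2424 in ITGA8+ and 3791 in ITGA8- cells, had more signal in ITGA8- cells, within 2-fold. Among 8 cardiac muscle genes, Actn2, at 433 in ITGA8+ and 35 in ITGA8- cells, and Mybpc3, at 142 in ITGA8+ and 62 in ITGA8- cells, were higher, and Myl7, the atrial light chain, was lower, at 1546 in ITGA8+ and 8047 in ITGA8- cells (median -0.20, and 0.01 after quantile normalisation). Of 8 portal fibroblast genes, Thy1 was higher, at 216 in ITGA8+ and 49 in ITGA8- cells, and Fbln2 and Gas6 were lower (median 0.33), Gas6 at 278 in ITGA8+ and 926 in ITGA8- cells.

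Markers of other liver cells varied by type. Megakaryocyte and platelet genes were higher in ITGA8+ cells, with 13 of 20 (65.0%) past 2-fold and none lower (median 1.44). Over all genes 5.49% were higher. Vwf, von Willebrand factor, had 2835 in ITGA8+ and 613 in ITGA8- cells. Gp1bb, a chain of its platelet receptor, had 3395 in ITGA8+ and 530 in ITGA8- cells, with its other probe set at 2.42. Pf4, platelet factor 4, was within 2-fold at 17111 in ITGA8+ and 9917 in ITGA8- cells. Gp6 had 348 in ITGA8+ and 30 in ITGA8- cells, so its lower array was below the floor. In the podoplanin sort Pf4 had 16547 in PDPN+ and 56 in PDPN- cells, and Vwf 1097 in PDPN+ and 3 in PDPN- cells. The list median for PDPN+ minus PDPN- was 4.44, while that of the stellate list was -0.29.

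Macrophage genes were mostly low. Of 22, 12 lay below the floor in both fractions, among them C1qa (34 in ITGA8+ and 21 in ITGA8- cells), C1qc (5 in ITGA8+ and 16 in ITGA8- cells) and Adgre1 (44 in ITGA8+ and 31 in ITGA8- cells). Of the other 10, 5 passed 2-fold, all toward ITGA8+ cells (median 0.83), with C1qb at 315 in ITGA8+ and 54 in ITGA8- cells and Csf1r at 427 in ITGA8+ and 139 in ITGA8- cells. Each had a further probe set below the floor, that of C1qb at 41 in ITGA8+ and 18 in ITGA8- cells. That of Csf1r had the opposite sign, at 49 in ITGA8+ and 69 in ITGA8- cells. The summed intensity of the macrophage list was 10010 in ITGA8+ and 5156 in ITGA8- cells. Laptm5 alone gave 5514 in ITGA8+ and 2702 in ITGA8- cells of these sums.

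Erythroid, progenitor and neutrophil genes gave no member past 2-fold, of 19, 14 and 3 above the floor; the erythroid summed intensity was 128225 in ITGA8+ and 97859 in ITGA8- cells. Of 24 hepatoblast genes, Nr1h4, the bile acid receptor, was higher, at 720 in ITGA8+ and 120 in ITGA8- cells, and Epcam lower, at 89 in ITGA8+ and 256 in ITGA8- cells. Alb, albumin, had 22138 in ITGA8+ and 18532 in ITGA8- cells and Hnf4a 11074 in ITGA8+ and 8237 in ITGA8- cells. The hepatoblast signal was therefore similar in both fractions, with a list median of 0.21 (-0.01 after loess). Its share past 2-fold was 4.2% each way, beside 5.49% higher and 5.88% lower over all genes. Of 22 endothelial genes, Plvap, a protein of capillary diaphragms, at 1840 in ITGA8+ and 365 in ITGA8- cells, and Sox17, at 232 in ITGA8+ and 107 in ITGA8- cells, were higher, and Kdr, a VEGF receptor, was lower, at 231 in ITGA8+ and 651 in ITGA8- cells (median 0.03). Among endothelial markers, Pecam1 had 74 in ITGA8+ and 111 in ITGA8- cells, and Cdh5 107 in ITGA8+ and 143 in ITGA8- cells. Both were near or below the floor. Lyve1 had 690 in ITGA8+ and 729 in ITGA8- cells, and Stab2 1600 in ITGA8+ and 935 in ITGA8- cells. Lyve1 and Stab2 thus lay above the floor and within 2-fold. The endothelial shares were 9.1% higher and 4.5% lower, beside the same 5.49% and 5.88%. Proliferation genes were alike, with 1 of 22 past 2-fold (median 0.11) and Mki67 at 11387 in ITGA8+ and 10734 in ITGA8- cells. Both arrays held Xist, at 13000 in ITGA8+ and 12097 in ITGA8- cells, and the Y-linked Ddx3y, at 889 in ITGA8+ and 824 in ITGA8- cells.

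**Figure D5:**
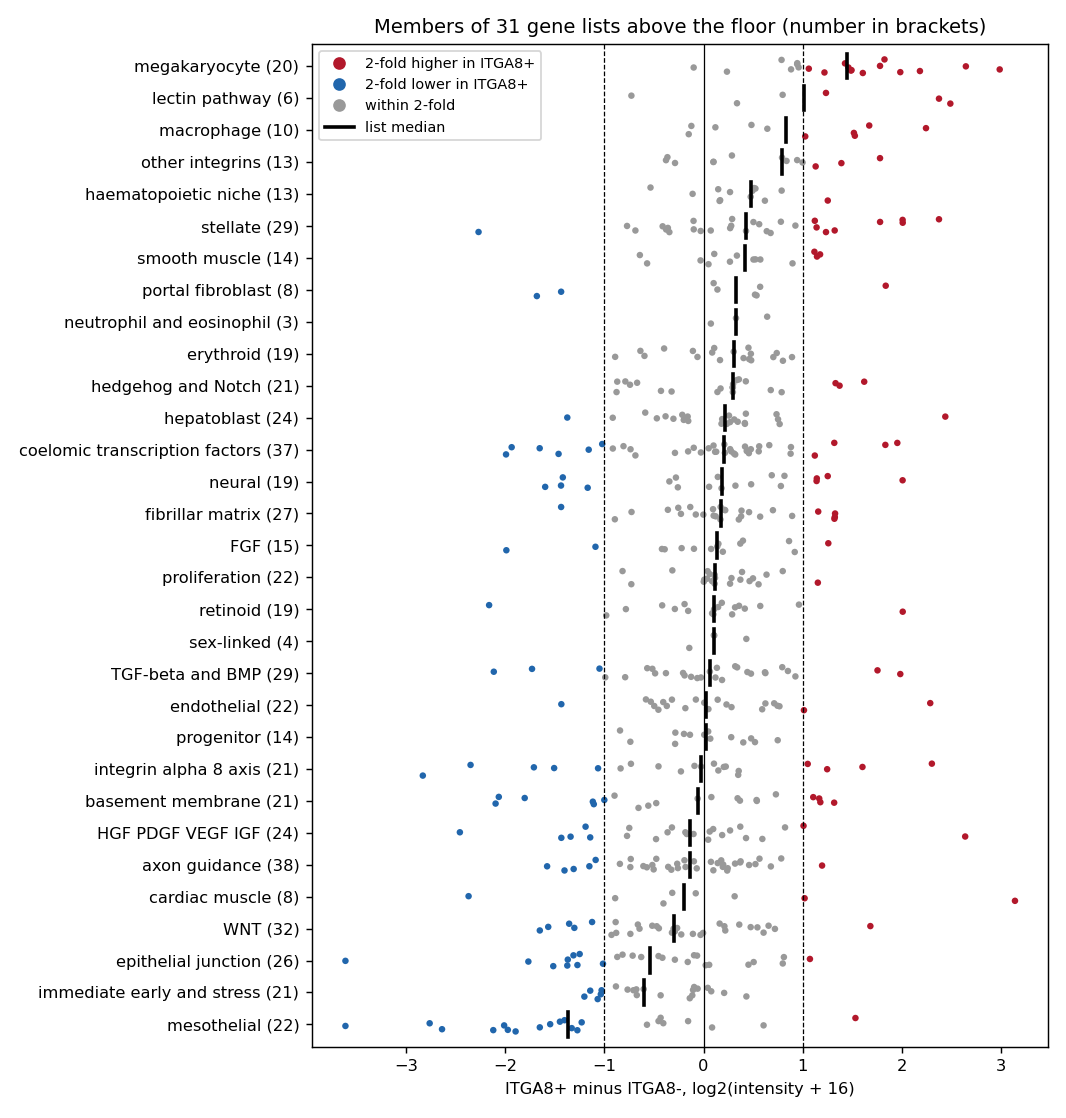
Difference (x axis, log2(intensity + 16), ITGA8+ minus ITGA8-) of each gene above the floor in the 31 lists, 1 point per gene, with list medians as bars, red for 2-fold higher and blue for 2-fold lower. The megakaryocyte list (13 of 20 higher) is at the top and the mesothelial list (14 of 22 lower) at the bottom.

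Beyond the lists, genes were ranked where a second probe set also passed 2-fold in the same direction. The 20 largest upward differences of this kind included, besides Adamts2, Masp1 and Colec11, Adm, the vasodilator peptide adrenomedullin, at 3447 in ITGA8+ and 754 in ITGA8- cells, Abcc9, the regulatory subunit of a potassium channel of smooth muscle and pericytes, at 1742 in ITGA8+ and 449 in ITGA8- cells, Mrvi1, a substrate of cyclic GMP-dependent kinase, at 4353 in ITGA8+ and 964 in ITGA8- cells, and Cp, ceruloplasmin, at 735 in ITGA8+ and 178 in ITGA8- cells. Their other probe sets lay at 1.28 for Adm, between 1.11 and 2.11 for Abcc9, at 1.70 for Mrvi1 and at 1.24 for Cp. Adm, Abcc9, Mrvi1 and Cp were in none of the 31 lists.

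The 20 largest downward ones included Rnf182, a ubiquitin ligase, at 545 in ITGA8+ and 3151 in ITGA8- cells, the potassium channel genes Kcna1, at 125 in ITGA8+ and 752 in ITGA8- cells, and Kcnab1, at 631 in ITGA8+ and 2585 in ITGA8- cells, the keratin gene Krt14, at 308 in ITGA8+ and 1204 in ITGA8- cells, and Smpd3, a neutral sphingomyelinase, at 218 in ITGA8+ and 849 in ITGA8- cells. Of these 20 genes, 19 had more signal in PDPN+ than in PDPN- cells, with Rnf182 at 5169 in PDPN+ and 92 in PDPN- cells and Pex5, the exception, at 796 in PDPN+ and 1323 in PDPN- cells. Of the 20 upward genes, 9 had more signal in PDPN+ and 11 in PDPN- cells, with Abcc9 at 484 in PDPN+ and 1709 in PDPN- cells. The 9 included the blood cell genes Gp1bb, at 760 in PDPN+ and 7 in PDPN- cells, and C1qb, at 9462 in PDPN+ and 39 in PDPN- cells. Over all 13890 genes, 52.4% had more signal in PDPN+ cells, and the podoplanin and integrin sorts share no array.

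With both arrays above the floor, the 15 largest upward differences included Dgkk, a diacylglycerol kinase, at 1779 in ITGA8+ and 235 in ITGA8- cells, Chst15, a chondroitin sulfotransferase, at 5342 in ITGA8+ and 988 in ITGA8- cells with its other probe set at 0.30, and Ntsr1, a neurotensin receptor, at 695 in ITGA8+ and 123 in ITGA8- cells. The 15 downward ones included Pnoc, the precursor of the peptide nociceptin, at 320 in ITGA8+ and 2956 in ITGA8- cells, Cav1, caveolin 1, at 868 in ITGA8+ and 4601 in ITGA8- cells, and Bcar3 at 340 in ITGA8+ and 2308 in ITGA8- cells. In the podoplanin sort 4 of the 15 upward genes had more signal in PDPN+ and 11 in PDPN- cells, and of the 15 downward genes 12 had more in PDPN+ and 3 in PDPN- cells. For 2 of the downward genes the probe sets of the gene did not go together: Tarbp2 had 285 in ITGA8+ and 3500 in ITGA8- cells with its other probe set at 0.02, and Phospho2 had 550 in ITGA8+ and 4089 in ITGA8- cells with the others between -0.09 and 0.59.

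Differences past 2-fold were more frequent among genes of low signal. When the genes were divided into 4 equal bins by mean intensity, 15.4% of the lowest bin passed 2-fold, then 15.2%, 9.94%, and 4.92% of the highest. The directions were uneven in the highest bin, with 116 higher and 55 lower, and in the next to lowest, with 212 higher and 316 lower. The lower array of 189 higher and 158 lower genes was below the floor, and the size of their folds depends on the added 16. With the mean of all probe sets of a gene, some genes named above came below 2-fold, among them Cxcl12 at 0.46, Boc at 0.71, Notch4 at 0.94, Spry4 at 0.46, Unc5c at 0.48, Gata5 at 0.35, Csf1r at 0.69, Cdh3 at -0.95, Pdgfd at -0.62, Gas6 at -0.78 and Phospho2 at -0.78. With specific probe sets only, Masp1 was at 0.75 and Vegfc at 0.20.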

How the data were processed

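RNA from cells sorted from E12.5 liver was extracted, 20 ng was amplified with the Nugen Ovation system and biotin labelled, and hybridised to Mouse Genome 430 2.0 arrays, per the labels' protocols. The authors deposited a linear intensity per probe set, in whole numbers. RMA and Partek were used per the submitters' processing notes; for both, the version is not given in the sources used here. RMA usually yields log2 values and a common distribution, and these values have neither. The 4 fraction arrays share a trimmed mean (2% at each end), whereas the liver and ALCAM+ arrays lie on another scale and were used here only in the floor and in 1 alternative choice of probe sets. The number of arrays, 1 per group, limits the precision.

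Of 45101 probe sets, 64 controls, 5746 naming no gene and 1280 naming several genes were left out, which left 38011. Symbols came through Entrez identifiers from a RefSeq table (GRCm38.p6; 92.1% of probe sets matched). Values were transformed to log2(intensity + 16), and a gene was called at 2-fold. Promoters are from RefSeq; no genome build of the probe sets is given in the sources used here. Members of 31 lists, the comparison's markers, the 20 largest differences each way with a second probe set past 2-fold, and the 15 largest each way with both arrays above the floor could be named, except a few that are not reported here; examples of members within 2-fold were chosen after their values were seen. The comparison, members and lists were chosen with earlier results of these data known. Alternatives covered the pseudocount, floor, probe set choice, scaling and fold. The computation was tested on simulated data. Python 3.11.15, numpy 2.4.6, pandas 2.3.3, SciPy 1.17.1, statsmodels 0.14.6 and matplotlib 3.10.9 were used.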

Additional observations from a re-analysis of the deposited data

How the results depend on the processing

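No paired analysis was possible because each group had 1 array, and for the same reason no array could be left out. The 763 higher genes became 1330 with no floor and 452 with the mean of all probe sets, under which 5 stellate genes were higher. At 4-fold, 51 genes were higher and 65 lower, with 3 stellate and 3 megakaryocyte genes higher and 5 mesothelial genes lower. When every other probe set had to exist and to have the same sign, an alternative chosen after seeing the data, 214 genes were higher and 188 lower, with 2 stellate and 3 megakaryocyte genes higher and 4 mesothelial genes lower; this setting compares only 2849 genes. The counts of stellate and megakaryocyte genes higher and mesothelial genes lower stayed within 1.5 times of those reported in the other settings. Of 183 named genes followed over 11 settings, 131 were past 2-fold in every setting that gave a value and 1 reversed, Tarbp2, at 0.016 with specific probe sets only; the cause was not tested. Low signal limits Lrat, Prelp, Msln, Spp1 and other genes whose lower array is below the floor.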
